A study of Mus musculus with 4 samples.

Results

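CpG-poor promoters are stretches of open chromatin over the start of a gene in which the dinucleotide CG is scarce. Joining the peaks of 4 ATAC-seq libraries at any overlap of 1 bp gave 122166 regions, and 48089 of them held a peak in every library. Of these, 12290 autosomal regions covered the start of a protein-coding transcript. The 983 regions with a divergent pair of genes starting within 1000 bp were left out. Of the remaining 11307 promoters, 1059 (9.37%) had a ratio of observed to expected CG below 0.4 and are described here, with 1008 genes, and the other 10248 are called other promoters. The CpG-poor promoters were therefore selected on a peak in all 4 libraries and on the reference sequence, so neither their openness nor their lack of CG is a finding.

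The tumors grew from mG7080, a murine glioblastoma line, in the brains of C57BL/6 mice (C57BL/6J in the study's methods) that were wild type (WT) or lacked Esm1 (KO), with 2 tumors in each group. The product of Esm1 is Endocan, which endothelial cells secrete. Only the host lacks Esm1: both groups received the same injected line, which came from mice with mutations in tumor suppressor genes. The labels give tumor tissue as the source, the methods give fresh tumor cells, and the results give cells grown from the tumors. ATAC-seq reads chromatin accessibility from the places where a transposase inserts sequencing adapters. The height of a peak is given in read ends at its summit, as recovered from the deposited peak values. WT 1 was the shallowest library, with 63000 peaks and a genome background of 4.41 read ends, against 82975 to 100088 peaks and 6.03 to 6.85 read ends in the others. The deposited list recorded for KO 2 is named in another pattern than the other 3 lists and carries the number 1. It was taken as KO 2 by its sample title.

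In mammals most promoters of housekeeping and developmental genes lie in CpG islands, where CG escapes methylation and chromatin tends to be open in many cell types. Promoters outside islands have lost CG through methylation and mutation, are more often tied to a tissue or a stimulus, and hold a TATA box more often than islands do. A TATA box binds the TATA-binding protein and sets the place of the start.

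Sequences upstream of single starts show how sparse or dense CG can be. The stretches are the 200 bases upstream of a start in GRCm38 (mm10), all outside annotated exons, read 5′ to 3′ along the strand of the gene. In the first group of stretches capitals mark CG. Golph3l, a Golgi phosphoprotein homolog, was the CpG-poor promoter with the highest peaks, and its stretch lies at chr3:95588734-95588933 on the plus strand. 4931408C20Rik had the lowest ratio of those with an exon-free stretch, at chr1:26687461-26687660 on the minus strand. Gm17509, at chr13:117221076-117221275 on the minus strand, is an other promoter close to the median ratio of its class and is shown for contrast.
Golph3l: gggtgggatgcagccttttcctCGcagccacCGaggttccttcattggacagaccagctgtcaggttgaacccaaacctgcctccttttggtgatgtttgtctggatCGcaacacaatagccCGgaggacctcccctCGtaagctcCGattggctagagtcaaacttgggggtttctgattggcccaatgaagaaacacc
4931408C20Rik: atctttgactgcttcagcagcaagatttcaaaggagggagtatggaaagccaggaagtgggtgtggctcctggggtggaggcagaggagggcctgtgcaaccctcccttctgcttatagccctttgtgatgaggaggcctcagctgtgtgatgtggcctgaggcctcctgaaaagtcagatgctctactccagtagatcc
Gm17509: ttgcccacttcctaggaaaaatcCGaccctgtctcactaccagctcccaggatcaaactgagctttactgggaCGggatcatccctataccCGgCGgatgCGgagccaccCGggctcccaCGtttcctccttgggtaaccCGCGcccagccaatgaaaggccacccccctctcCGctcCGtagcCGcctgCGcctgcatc
The stretch of Golph3l held 6 CG, that of 4931408C20Rik held 0 and that of Gm17509 held 13. The limit applies to the whole region: in the stretch alone Golph3l had a ratio of 0.412, and Rgs4, shown next, had 0.605.

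In the next pair capitals mark the TATA box, which in both genes began 31 bases upstream of the start. Rgs4, a regulator of G protein signaling, is at chr1:169747643-169747842 on the minus strand, and Neu2, a cytosolic sialidase, at chr1:87594350-87594549 on the plus strand.
Rgs4: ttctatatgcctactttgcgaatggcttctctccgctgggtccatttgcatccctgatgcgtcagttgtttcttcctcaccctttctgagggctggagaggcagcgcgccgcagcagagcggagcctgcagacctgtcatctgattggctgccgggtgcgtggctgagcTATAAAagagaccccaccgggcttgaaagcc
Neu2: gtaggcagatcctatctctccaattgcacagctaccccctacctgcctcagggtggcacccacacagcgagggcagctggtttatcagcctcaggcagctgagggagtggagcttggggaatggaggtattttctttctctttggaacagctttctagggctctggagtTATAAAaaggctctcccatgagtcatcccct
The last pair comes from interferon-inducible genes whose peaks were highest in KO 2, and capitals mark the interferon-stimulated response element (ISRE) on either strand. Igtp and Irgm2, immunity-related GTPases, share a promoter region with the stretch chr11:58199356-58199555 on the plus strand, and Rsad2, the antiviral protein viperin, lies at chr12:26456453-26456652 on the minus strand.
Igtp/Irgm2: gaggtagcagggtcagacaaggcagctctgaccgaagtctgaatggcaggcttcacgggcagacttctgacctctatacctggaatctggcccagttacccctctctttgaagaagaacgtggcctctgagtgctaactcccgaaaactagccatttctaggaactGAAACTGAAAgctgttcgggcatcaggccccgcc
Rsad2: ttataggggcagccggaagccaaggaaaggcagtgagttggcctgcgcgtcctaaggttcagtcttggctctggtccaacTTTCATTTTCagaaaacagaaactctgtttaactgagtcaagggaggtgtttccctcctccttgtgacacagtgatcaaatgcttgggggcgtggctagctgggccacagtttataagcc
An ISRE stood in this 200-base stretch in 33 of 1059 CpG-poor promoters (3.12%) and in 148 of 10248 other promoters (1.44%). A match describes the letters and is not evidence that a factor was bound.

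The CpG-poor promoters were shorter and poorer in GC than the others. Their median width was 1095 bp against 1273 bp, their median GC content 51.8% against 60.4%, and their median number of CG 20 against 81. The median ratio was 0.304 in the CpG-poor promoters, 0.724 in the other promoters and 0.239 in the 34126 autosomal regions open in all tumors without a start of a protein-coding gene. The ratios of the promoter classes were set by the rule, and 84.8% of the distal regions were under the same limit. At the limit, Tagln3, a neuronal calponin family member, Ankrd34a and Adar, an RNA editing enzyme, were just inside, Tagln3 at the limit after rounding and the others with 0.3995 and 0.3993, and Gprin3 and Il1r2, a decoy receptor of interleukin 1, both with 0.4004, were just outside. The peaks of Adar reached 27 and 56 read ends in WT and 52 and 75 in KO, and those of Il1r2 32 and 60 in WT and 51 and 56 in KO. The limit cuts a continuous range.

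A low ratio over the whole region did not always mean a low ratio at the start. In the 300 bp centred on the start nearest the summit, 687 of 1059 (64.9%) were still under 0.4, and 67 (6.33%) had a ratio over 0.6 there. The lowest ratios belonged to H2-Eb1, a beta chain of MHC class II, whose region held no CG at all, 4931408C20Rik with 0.0176, Gm7137 with 0.0187, R3hdm1 with 0.0282 and Mettl21e with 0.0351. H2-Eb1 was open at 26 and 30 read ends in the WT tumors and at 35 and 51 in the KO tumors. Its height in KO 2 was the highest of the 4.

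Many CpG-poor promoters did not hold the start of a principal isoform or the most upstream start of their gene. The start of a principal isoform lay inside 64.2% of them against 93.0% of the other promoters, and the most upstream coding start of a gene inside 588 (55.5%) against 87.5%. In 403 (38.1%) the gene had a further open promoter with a ratio at or above 0.4. Of the 471 without the most upstream start, 356 (75.6%) had such a promoter elsewhere. Examples are Nfe2l1, a transcription factor of proteasome genes, Ndrg4, Neu2, Abr, a GTPase regulator, and Tfeb, the regulator of lysosomal genes, whose CpG-poor promoters lay downstream of the most upstream start. The regions of Ndrg4 and Neu2 nevertheless held the start of a principal isoform. The summit lay within 100 bp of a start in 52.5% of CpG-poor and 62.9% of other promoters.

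Peak heights of the CpG-poor promoters lay between those of other promoters and of distal regions in every tumor. The median height was 38 read ends in WT 1, 57 in WT 2, 47 in KO 1 and 52 in KO 2, against 64, 85, 74 and 86 in other promoters. Distal regions had medians of 26, 44, 36 and 38. On the log2 scale, with each library centred on the median of all regions open in all tumors, CpG-poor promoters were lower than other promoters by 0.68 ± 0.079 (SD, n = 4 libraries), and the difference ran from -0.75 to -0.58 and was negative in 4 of 4 libraries. Between 83.4% and 90.7% of CpG-poor promoters were below the median of the other promoters of the same library. This is a description without a test, since 4 libraries of the same line are the only replicates. In bulk libraries fewer cells with an open promoter and a less open promoter in each cell cannot be told apart.

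**Figure D1:**
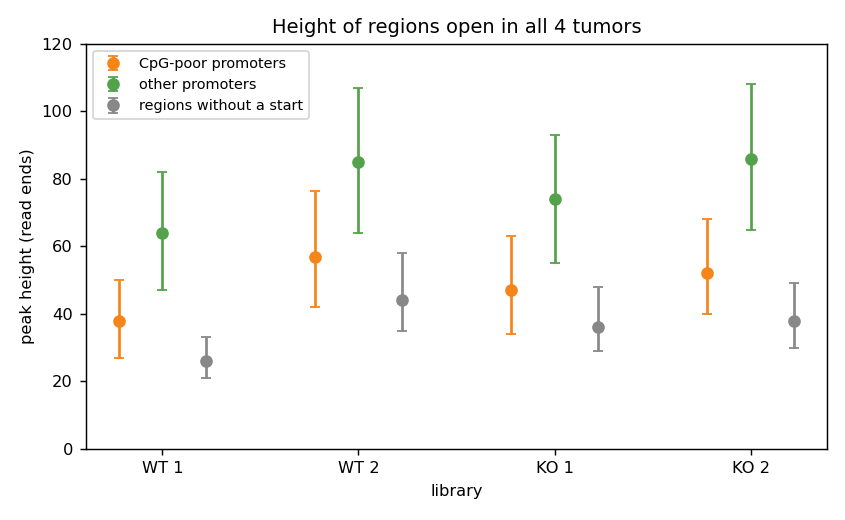
Median peak height (vertical axis, read ends) of CpG-poor promoters, other promoters and regions without a start in each library, with bars from the lower to the upper quartile. In each library the CpG-poor promoters, with medians from 38 to 57, sit between the other classes, and the quartiles overlap.

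A smaller gap remained on the fold over local background. The median deposited fold was 4.42, 4.36, 4.24 and 4.16 in WT 1, WT 2, KO 1 and KO 2 for CpG-poor promoters and 6.25, 5.62, 5.58 and 5.50 for other promoters. The difference in log2 fold was then -0.42. The height rose with the ratio without a step at the limit. In WT 1 the median was 28 read ends for the 25 promoters with a ratio under 0.1, 41.5 for the 554 from 0.3 to 0.4, 47 for the 839 from 0.4 to 0.5 and 76 for the 1043 at 0.9 or more, and in the other 3 libraries the medians rose from bin to bin as well. The 687 promoters that were CpG-poor at the start too were lower than other promoters by 0.76 (log2, mean of 4 libraries), and the 372 that were not by 0.52. GC content and width changed with the ratio, and their part in the height was not tested.

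**Figure D2:**
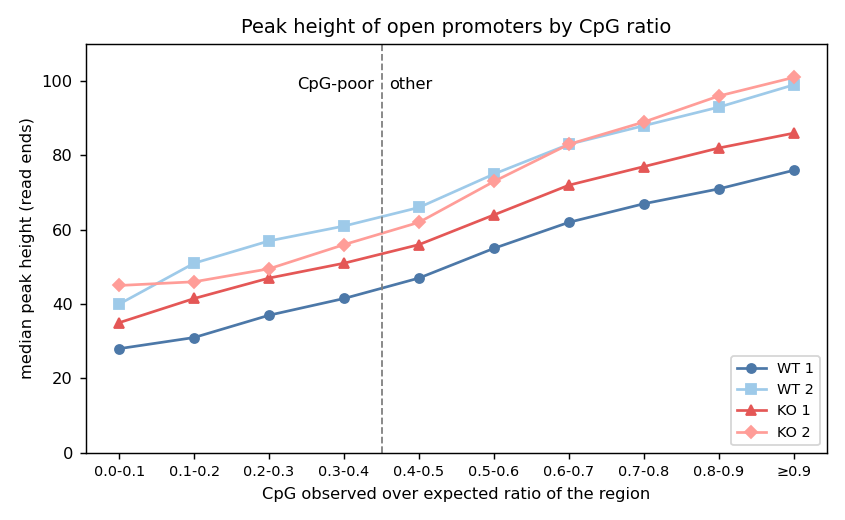
Median peak height (vertical axis, read ends) of open promoters without a divergent pair against the ratio of observed to expected CG (horizontal axis, bins, no unit), with 1 line per library and a dashed line at the limit. All 4 lines rise, in WT 1 from 28 to 76, and none has a step at the limit.

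Single CpG-poor promoters nevertheless carried high peaks. Golph3l reached 109 and 134 read ends in WT and 117 and 137 in KO. Zkscan5, a zinc finger gene, reached 100 and 129 in WT and 109 and 142 in KO. Tomm40l, which resembles a channel of the mitochondrial import machinery, had 103 and 126 in WT and 116 and 127 in KO. In read ends WT 1, the shallowest library, was the lowest in each of these genes, whereas after centring for depth it was the highest. The genotypes overlapped after centring, and every library lay above the median of the other promoters. Tef, a bZIP factor with circadian expression, had 98 and 134 in WT and 113 and 123 in KO with a ratio of only 0.226. Nfe2l1 had 82 and 140 in WT and 123 and 114 in KO. The other 5 of the 10 highest were Ccdc28b, Ndrg4, Fam214b, Setmar and Akr1e1, with 86 to 94 read ends in WT 1 and 103 to 123 in KO 2. The SD of these 5 over the libraries, in log2 units, was at most 0.168.

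At the other end, 5 promoters were close to the lowest height that could be called, which was 13, 16, 15 and 16 read ends in WT 1, WT 2, KO 1 and KO 2. Hacd4, a fatty acid elongation enzyme, had 15 and 19 in WT and 22 and 23 in KO. C1s1, a protease of the complement cascade, had 20 and 22 in WT and 21 and 20 in KO. Rgs5, a marker of pericytes, had 16 and 23 in WT and 22 and 25 in KO. Cep295 and 1700019D03Rik were as low, at 15 to 27 read ends. So close to the calling limit a peak that is present in all 4 libraries is a selected one, and a promoter that closes in 1 tumor cannot be a member.

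A TATA box, written TATAAA on the sense strand and beginning 40 to 20 bases upstream of a start in the region, was found in 21 CpG-poor promoters (1.98%, exact 95% binomial interval 1.23 to 3.02%) and in 106 other promoters (1.03%). Binomial intervals cover counting error only. Ndrg4, a gene of the nervous system and heart, had the highest peaks of these, with 88 and 127 read ends in WT and 99 and 123 in KO. Cx3cl1, the chemokine fractalkine, had 69 and 98 in WT and 85 and 88 in KO, and Rgs4 had 60 and 92 against 77 and 67. The genotypes overlapped in all 3 genes. Neu2, Mt3, a metallothionein of the brain, and Abr followed with 42 to 58 read ends in WT 1 and 58 to 92 in KO 2. The median height of the 21 was 37, 52, 44 and 56 read ends in the same order of libraries, against 38, 57, 48 and 51 in the CpG-poor promoters without the box. Promoters with the box were thus not uniformly higher or lower.

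Within 100 bp of the summit, counting either strand, the CpG-poor promoters carried several motifs without CG more often than other promoters and mostly less often than distal regions. TGANTCA, the site of AP-1, a dimer of Fos and Jun proteins, was present in 94 CpG-poor promoters (8.88%, exact 95% binomial interval 7.23 to 10.8%), in 2.09% of other promoters and in 13.3% of distal regions. The 94 had lower peaks than the rest, with a difference of medians of -0.29, -0.09, -0.16 and -0.13 (log2) in WT 1, WT 2, KO 1 and KO 2. In the 300 bp at the start the AP-1 shares of CpG-poor and other promoters were 9.44% and 3.77%. The E-box CATATG, bound by Olig2 among others, was in 2.55% of CpG-poor promoters, 0.517% of other promoters and 6.10% of distal regions. AACAAT, the core of SOX sites, was in 4.82%, 1.74% and 7.08% of the same classes. TGTGGT, the RUNX core, was in 10.2%, 5.44% and 13.3%, and ISRE in 2.36%, 0.986% and 2.95%. CCAAT, the NF-Y box, was an exception, with 26.3% of CpG-poor and 26.8% of other promoters. The E-box CAGCTG was in 19.8% of CpG-poor promoters, 11.3% of other promoters and 17.4% of distal regions, so its share exceeded that of distal regions. Motifs that hold CG were scarcer, as the rule brings about: GGGCGG, the site of SP1 and KLF factors, was in 17.6% against 63.1% of other promoters, and CCGGAA, the ETS core, in 6.80% against 19.9%. The windows differ in base composition between classes and were not matched for it. ATGCAAAT, TTCNNNGAA and GGAATGT, the sites of POU, STAT and TEAD factors, were also in more CpG-poor than other promoters, with 1.32% against 0.722%, 5.19% against 2.68% and 2.74% against 0.908%.

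**Figure D3:**
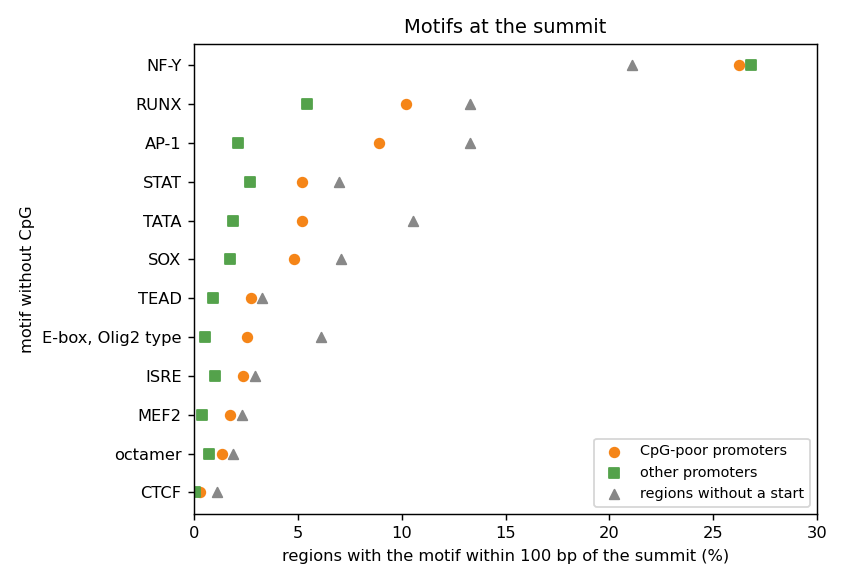
Share of regions with a motif within 100 bp of the summit (horizontal axis, percent) for a set of motifs without CG (vertical axis), in CpG-poor promoters, other promoters and regions without a start. CAGCTG is not drawn. For AP-1 the shares are 8.88%, 2.09% and 13.3%, and for the NF-Y box 26.3%, 26.8% and 21.1%.

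Of all genes with an open promoter 9.41% had a CpG-poor one, and gene groups differed widely from that share. None of the 60 cytosolic ribosomal protein genes, 48 histone genes, 29 proteasome subunit genes and 17 immediate early genes with an open promoter had one, and neither had the 11 oligodendrocyte precursor genes. All 5 open S100 genes, which encode small calcium-binding proteins, did, as did 4 of 4 olfactory receptor genes, 3 of 4 keratin genes and 4 of 6 serpin genes. So did 45 of 312 numbered zinc finger genes (14.4%), which hold clusters of close copies, so that reads mapping to several copies may be shared between them. These are counts of gene lists that were chosen with earlier results of these data known, without a test, and small lists give imprecise shares.

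Among S100 genes the highest peaks were at S100a3, with 35 and 80 read ends in WT and 73 and 76 in KO. S100a10 had 38 and 61 in WT and 47 and 68 in KO. S100a6 had 19 and 32 in WT and 26 and 51 in KO. In read ends WT 1 was the lowest library in each and the groups overlapped in each. After centring for depth both KO libraries lay above both WT libraries at S100a3 but not at S100a10 and S100a6. Over all 5 S100 promoters this held in 3, S100b among them, against 10.5% of CpG-poor promoters and 12.8% of all regions. The median difference over the 5 was 0.34 (log2), with 0 calls. The olfactory receptor genes, whose products serve in the nose, were open at modest heights, with 22 to 32 read ends in WT 1 and 39 to 58 in KO 2. The serpins included Serpinb9, an inhibitor of granzyme B, with 50 and 60 read ends in WT and 51 and 72 in KO, and Serpina3n, a secreted protease inhibitor, with 26 and 38 in WT and 31 and 40 in KO. Zfp607b was the highest numbered zinc finger gene, at 87 and 103 read ends in WT and 99 and 107 in KO.

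Marker genes of neural cells were among the CpG-poor promoters as well. Of 15 open neuron genes 6 were, among them Camk2a, a kinase of synaptic plasticity, Dlg4, the scaffold PSD-95, Thy1, Elavl4 and Map2. Camk2a had 67 and 100 read ends in WT and 94 and 81 in KO, and Dlg4 had 54 and 83 in WT and 74 and 88 in KO. The genotypes overlapped at Camk2a after centring, and at Dlg4 both KO libraries were slightly above both WT libraries. Of 11 open astrocyte genes 3 were CpG-poor: Clu, a chaperone, S100b, and Fabp7, the brain fatty acid-binding protein, which had 24 and 39 read ends in WT and 36 and 64 in KO. After centring both KO libraries lay above both WT libraries at all 3, against 10.5% of CpG-poor promoters and 12.8% of all regions. KO 2 was the highest library in each, and 0 of the 3 were called. Mural cells were represented by Rgs5, 1 of 3 open genes, and endothelial cells (0 of 5 open genes), microglia and macrophages (0 of 1), neutrophils and erythroid cells (0 of 2) and T and NK cells (no open gene) by none. Of the listed genes with an autosomal start, 5 of 20 endothelial, 1 of 20 microglia and macrophage and 0 of 15 T and NK cell genes had an open promoter of either class in all tumors, against 11 of 16 of oligodendrocyte precursors and 15 of 17 of neurons.

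Channels and transporters were closer to the overall share. CpG-poor promoters belonged to 9 of 64 potassium channel genes (14.1%), 20 of 194 solute carriers (10.3%), 4 of 14 cadherins, 3 of 16 myosins, 2 of 16 integrins, 2 of 17 interleukins and their receptors, 1 of 6 chemokines and their receptors, 1 of 15 collagens and 1 of 20 matrix metalloproteases and ADAMTS proteases. Kcnj9, a potassium channel gated by G proteins, was the highest of its list with 70 and 95 read ends in WT and 79 and 67 in KO. Il6, the cytokine interleukin 6, had 25 and 52 in WT and 48 and 50 in KO. Ccl2, the monocyte attractant, had 25 and 29 in WT and 27 and 60 in KO, and KO 2 alone stood high.

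The comparison of genotypes asked whether these promoters were more or less open in tumors of Esm1 KO hosts. By limma on centred log2 heights over all 48089 regions open in all tumors, 0 of 1059 CpG-poor promoters were higher and 0 lower in KO at an adjusted p of 0.05. Among all regions 18 (0.0374%) were higher and 1 (0.00208%) lower. At an unadjusted p under 0.05 there were 53 CpG-poor promoters (34 higher and 19 lower in KO), which is 5.01% against 3.08% of all regions and 1.56% of other promoters. That split turned with the scaling, to 17 higher and 56 lower with heights divided by the genome background and to 16 and 25 on the log2 fold. The lowest adjusted p was 0.0875, at Gbp3. The median difference, KO minus WT, was -0.032 on the log2 scale against -0.0041 over all regions. With 2 tumors per group an exact permutation test of a single value cannot give p below 0.333, and since the labels only say that the tumors are separate, the p-values measure the spread between these tumors.

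The groups were also compared by overlap alone. Both KO libraries lay above both WT libraries in 111 (10.5%), against 12.8% of all regions and 5.79% of other promoters. Both KO libraries lay below both WT libraries in 196 (18.5%), against 13.3% of all regions and 7.74% of other promoters. Low promoters varied more: the median SD over the libraries was 0.271 at a mean centred log2 height from -0.5 to 0 and 0.140 from 1.0 to 1.5.

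**Figure D4:**
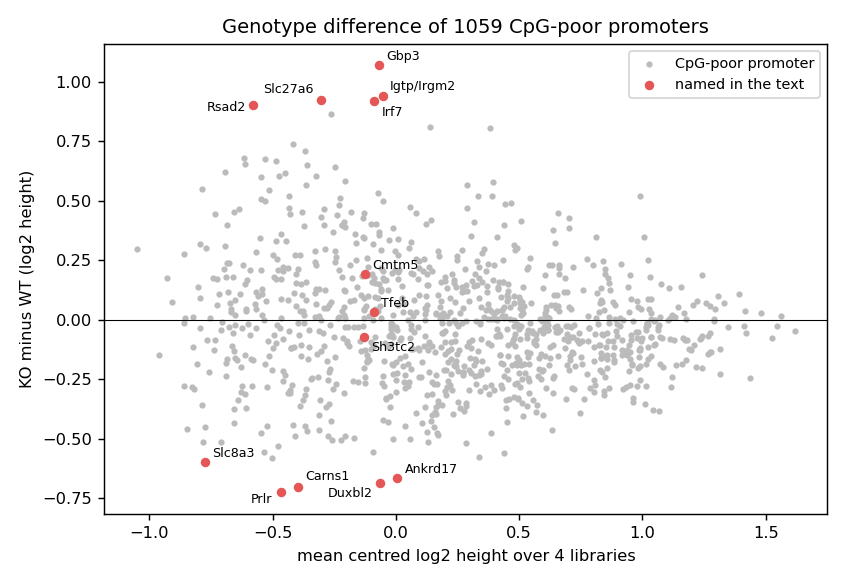
Difference of centred log2 height, KO minus WT (vertical axis), against the mean centred log2 height over the 4 libraries (horizontal axis) for the 1059 CpG-poor promoters, with named promoters in red. The points widen towards low heights, Gbp3 is highest at 1.07, Prlr lowest at -0.73, and no promoter passed the test.

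The largest differences towards KO without overlap lay at Gbp3, at Igtp and Irgm2, at Slc27a6 and at Irf7. Gbp3, an interferon-inducible guanylate-binding protein, had 21 and 31 read ends in WT and 41 and 82 in KO. Its log2 difference was 1.07 (SE 0.26, n = 2 per group, limma adjusted p = 0.0875). KO 2 alone stood far above the rest. The region of Igtp and Irgm2 had 22 and 33 in WT and 37 and 85 in KO (0.94, SE 0.26, limma adjusted p = 0.291). Irf7, a regulator of interferon genes that also has a TATA box, had 22 and 32 in WT and 44 and 67 in KO (0.92, SE 0.26, limma adjusted p = 0.373). KO 2 was again the highest and KO 1 above both WT libraries. Slc27a6, a fatty acid transporter, had 20 and 26 in WT and 36 and 61 in KO (0.92, SE 0.27, limma adjusted p = 0.436).

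The differences changed with the KO library left out. Without KO 1, where KO is KO 2 alone, they were 1.53 at Gbp3, 1.51 at Igtp and Irgm2 and 1.67 at Rsad2 (log2). Without KO 2, where KO is KO 1 alone, they were 0.60 at Gbp3, 0.38 at Igtp and Irgm2 and 0.13 at Rsad2. The local background rose together with the height. At Gbp3 it was 4.41 and 6.85 read ends in WT and 7.50 and 17.0 in KO, so that the fold over it was 4.06 and 4.08 in WT and 4.94 and 4.61 in KO. On the log2 fold the difference at Gbp3 was 0.27 and at Igtp and Irgm2 0.20, while that at Slc27a6 stayed at 0.87 (limma adjusted p = 0.211).

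Interferon response genes had 6 CpG-poor promoters among 16 open genes (37.5%), and 0 of the 6 were called. Beside Gbp3 and Irf7 they included Irf9, a transcription factor of the interferon response, and Ifit3 and Rsad2, which act against viruses. Irf9 had 49 and 62 read ends in WT and 66 and 92 in KO. KO 2 was the highest library, and after centring KO 1 lay just below WT 1. Ifit3 had 22 and 26 in WT and 36 and 62 in KO, and Rsad2 had 18 and 20 in WT and 22 and 67 in KO. KO 2 was the highest library in all 6, and after centring both KO libraries lay above both WT libraries in 4, against 10.5% of CpG-poor promoters and 12.8% of all regions. The median difference over the 6 was 0.88 on the log2 scale, against -0.032 over all CpG-poor promoters, and 6 of 6 were above 0 on this scale, whereas on the log2 fold over local background Irf9 was at -0.10, Gbp3 at 0.27, Irf7 at 0.34, Rsad2 at 0.46 and Ifit3 at 0.53. Without KO 2 the difference was 0.65 at Irf7 and 0.51 at Ifit3. The 25 CpG-poor promoters with an ISRE at the summit had a median that was lower than that of the rest by 0.25 in WT 1 and higher by 0.28 in KO 2, with -0.05 in WT 2 and 0.03 in KO 1. Taken as the departure of each promoter from its own mean over the libraries, the gap was only 0.03 in KO 2. It was -0.11 in WT 1, -0.02 in WT 2 and 0.01 in KO 1. What set KO 2 apart was not tested.

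**Figure D5:**
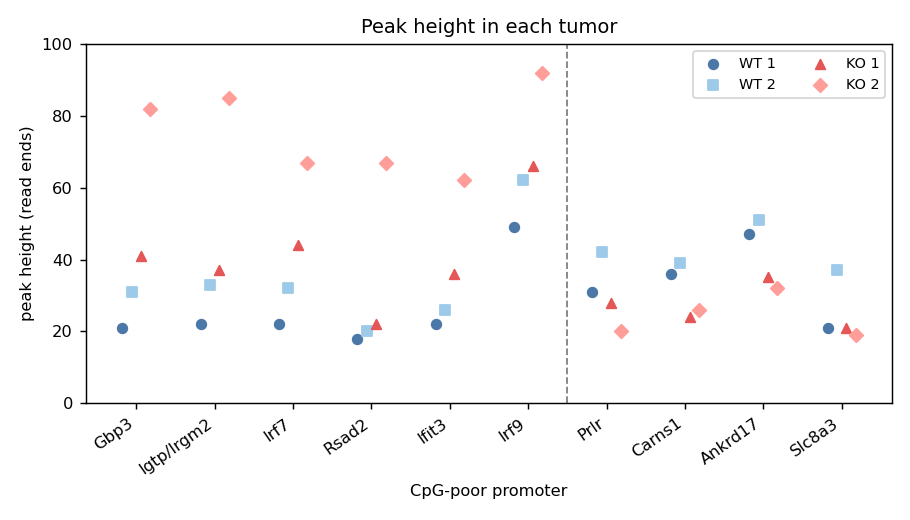
Peak height (vertical axis, read ends) in each of the 4 tumors at interferon-inducible CpG-poor promoters (left of the dashed line) and at the 4 promoters with the largest non-overlapping difference towards WT (right). KO 2 is the highest point at each promoter on the left, from 62 to 92, and on the right the KO points do not exceed 35.

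Towards WT the largest differences without overlap were smaller. Prlr, the prolactin receptor, had 31 and 42 read ends in WT and 28 and 20 in KO (-0.73, SE 0.27, limma adjusted p = 1.0). Carns1, the carnosine synthase, had 36 and 39 in WT and 24 and 26 in KO (-0.70, SE 0.27, limma adjusted p = 1.0). Ankrd17 had 47 and 51 in WT and 35 and 32 in KO (-0.67, SE 0.26, limma adjusted p = 1.0). After centring, the WT libraries lay far apart at Carns1 (0.26 and -0.36) and Ankrd17 (0.65 and 0.03), and without WT 1 the differences were -0.39 and -0.36. At Prlr the difference was -0.45 without KO 2. Slc8a3, a sodium calcium exchanger, had 21 and 37 in WT and 21 and 19 in KO (-0.60, SE 0.25, limma adjusted p = 1.0). In read ends its KO 1 equalled WT 1, and only after centring for depth did both KO libraries lie below both WT libraries. The regions at Prlr, Ankrd17 and Slc8a3 did not hold the most upstream start, and all 4 genes had an open promoter with a ratio at or above 0.4 elsewhere. After centring, 6 of the 9 potassium channel promoters had both KO libraries below both WT libraries, against 18.5% of CpG-poor promoters and 13.3% of all regions, with a median difference of -0.28 over the 9 and 0 calls. Kcnab1, a cytosolic beta subunit and 1 of the 6, had 47 and 78 read ends in WT and 57 and 51 in KO, which overlap before centring.

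The height of a CpG-poor promoter varied little between tumors in most cases. The median SD of centred log2 height over the 4 libraries was 0.205, against 0.195 in other promoters and 0.212 in distal regions. These classes differ in height, and low promoters varied more. At a mean centred log2 height from -0.5 to 0 the median SD was 0.271 in CpG-poor promoters, 0.274 in other promoters and 0.223 in distal regions. From 1.0 to 1.5 it was 0.140, 0.184 and 0.169. Without matching for height, an SD over 0.5 was reached by 39 CpG-poor promoters (3.68%), 1.80% of other promoters and 2.02% of distal regions. In 27 of the 39 KO 2 was the library farthest from the rest, and it was high in all 27. The same held in 117 of 184 other promoters and 305 of 690 distal regions with such an SD, so KO 2 stood apart beyond the CpG-poor promoters. Across the 1059 promoters the correlation of heights between libraries (Pearson, which reflects their shared sequence and background as well) was 0.92 between WT 2 and KO 1, and it was 0.73 to 0.78 for pairs with KO 2. In other promoters it was 0.87 to 0.96.

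The promoters that varied most followed several patterns. Cmtm5, a membrane protein of the MARVEL family, had 41 and 27 read ends in WT and 22 and 77 in KO, and Sh3tc2, known from a demyelinating neuropathy, had 55 and 24 in WT and 26 and 54 in KO. Tfeb had 48 and 27 in WT and 27 and 59 in KO. In these 3 promoters WT 1 and KO 2 were high and WT 2 and KO 1 low, so the split ran across the genotypes. Duxbl2, a double homeobox gene with near-identical copies, had 45 and 49 in WT and 17 and 59 in KO, where KO 1 was low. Without KO 2, with KO 1 as the only KO library, its log2 difference was -1.55, and without KO 1 it was 0.18. At Rsad2, as given above, only KO 2 was high.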

How the data were processed

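The titles of the samples gave group and number. Peaks were called per library. MACS2, HOMER and mm10 stand in the submitters' processing notes, without versions, while the study's methods describe Bowtie2, keeping up to 5 positions per read, and Genrich. A shift of reads for the transposase is stated by neither. The authors deposited, for each peak, its fold enrichment (a ratio), its significance as −log10 p-value and −log10 q-value, and a score, which was not needed. Depth in reads is unknown. Heights were recovered as whole read ends h from fold = (h + 1)/(background + 1) and the Poisson p-value, within 0.001 of −log10 p in all but 2 of 331481 peaks, and the lowest background of a library stood for its depth.

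Starts were the 54342 distinct start positions of protein-coding transcripts in GENCODE M21, on GRCm38.p6. The observed over expected ratio was CG × length/(C × G). The tallest peak of each region was used, log2 heights were centred on the library median, and limma 3.58.1 (R 4.3.3, trended variance, Benjamini-Hochberg) compared KO with WT over 48089 regions. Scripts ran in Python 3.11.15 with pysam 0.24.0 and SciPy 1.17.1 and were tested on simulated data. Promoters were named by a rule: the 10 highest, the 5 lowest, the 5 with the lowest ratio, 3 on each side of the limit, the 4 largest non-overlapping differences per direction, the 5 largest SD, up to 6 with a TATA box and up to 4 per gene list. Ifit3, Elavl4 and Map2 complete their lists and were named after their values were seen. Members, lists and tests were chosen with earlier results of these data known. Lists were matched by symbol, and some of their members are counted but not reported here by name. Alternatives changed the ratio limit, the window, the measure of height, the scaling, the block and the libraries used. Tumors of the same number come from different hosts, and their deviations from the group means correlated at -0.341 over all regions, so the numbers were not read as pairs.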

Additional observations from a re-analysis of the deposited data

How the results depend on the processing

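Of 67 alternative values 54 stayed within 1.5 times the reported count, within 1 SD of a spread between libraries or, for shares, within the binomial interval. Many of the 54 compare 0 calls with 0 calls, to which a factor of 1.5 does not apply, and were counted as unchanged. For the SD between libraries the tolerance was the SD of its values with a library left out. For the median genotype difference of -0.032 the tolerance was 0.200, the typical spread of a promoter within a group. A change of sign stayed within it, so this count says little about that difference. The number of CpG-poor promoters was 505 with a ratio below 0.3, 1898 below 0.5 and 721 where each library had to cover 50% of the region. Counts of promoters called higher in KO were 0 in most settings, but 2 with the sum of the heights of all peaks (Plec and Ccdc9b, named after their values were seen) and from 0 to 3 when a library was left out. Those called lower ranged from 0 to 1 when a library was left out. With the replicate block 0 were called higher and 0 lower. Pairing WT 1 with KO 2 and WT 2 with KO 1 instead, an alternative chosen after seeing the data, gave 6 higher and 0 lower. Over all 48089 regions that pairing gave 81 higher and 20 lower. The height difference from other promoters was -0.42 on the log2 fold and -0.58 when only peaks with −log10 q from 5 upwards were kept. The median SD was 0.156 on the log2 fold and 0.239 with the sum of heights, and it ran from 0.169 to 0.216 with a library left out. The AP-1 share was 3.97% in the 100 bp centred on the summit, a narrower window. The median genotype difference ran from -0.12 to 0.022 with a library left out, and it was above 0 only without WT 1, where the median over all regions was 0.047. With heights divided by the genome background it was -0.12, against -0.098 over all regions. Starts of every transcript of these genes, also chosen after seeing the data, gave 1467. A fit on regions open in all 4 libraries cannot see a promoter that closes, and heights near 16 read ends are limited by depth.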
